A study of Homo sapiens with 2 samples.

Results

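The genes JUN, JUNB, FOS, FOSB, EGR1, EGR3 and NR4A1 are immediate early genes, examined here through the H3K27ac peaks of LOUCY, a human leukaemia cell line of T-ALL (acute lymphoblastic leukaemia of T cells). Members were all peaks that overlapped 1 of the 7 gene bodies extended by 15 kb on either side, in hg19 positions given to the nearest kb. This took 32 of the 52203 peaks of the deposited list. H3K27ac, acetylation of histone H3 at lysine 27, marks active promoters and enhancers. The series held 1 ChIP library, with 54357332 tags kept by the peak caller, and 1 library of input DNA (chromatin sheared but not precipitated), with 71932640. Both came from LOUCY cells grown in standard medium, with no treatment, genotype change or time course in the labels. With 1 library each there is no replicate check, so the values are those of single libraries, and no difference was tested. A peak list shows where chromatin carried the mark and does not measure RNA from a gene.

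Immediate early genes are transcribed within minutes of a signal from the cell surface, without new protein synthesis. The factors that start them are already present and need only be activated, often by phosphorylation. JUN and FOS proteins pair through leucine zippers to form the AP-1 factor. EGR proteins are zinc finger factors that bind GC-rich sites. NR4A1 (Nur77) is an orphan nuclear receptor. In T cells all of these families respond to the T-cell receptor: AP-1 acts with NFAT at cytokine genes, EGR proteins act in thymocyte selection and in restraint of signalling, and NR4A1 is a widely used reporter of receptor signal strength and is linked to the death of self-reactive thymocytes.

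All 7 genes carried the mark at or close to the 5′ end. A peak lay within 1 kb of the 5′ end at 7 of 7 genes, while 8.15% of the 2 kb windows that tile the chromosomes held a peak. Those windows are mostly not at genes, so the share is a genome background and not that of other genes. The folds of these start-site peaks, each the authors' ratio of ChIP signal to the local input level, were 10.5 at EGR1, 9.74 at JUN, 8.06 at EGR3, 8.06 at NR4A1, 7.13 at JUNB, 5.99 at FOS and 4.25 at FOSB. Their ranks by fold ran from 2120 at EGR1 to 18366 at FOSB. The peak at EGR1 was thus within the first 4.06% of the list and that at FOSB within the first 35.2%. Widths ran from 1856 bp at FOSB to 14572 bp at JUNB. Neighbours in this order cannot be told apart without replicates. EGR3 and NR4A1 differed only in the third digit of the fold.

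**Figure D1:**
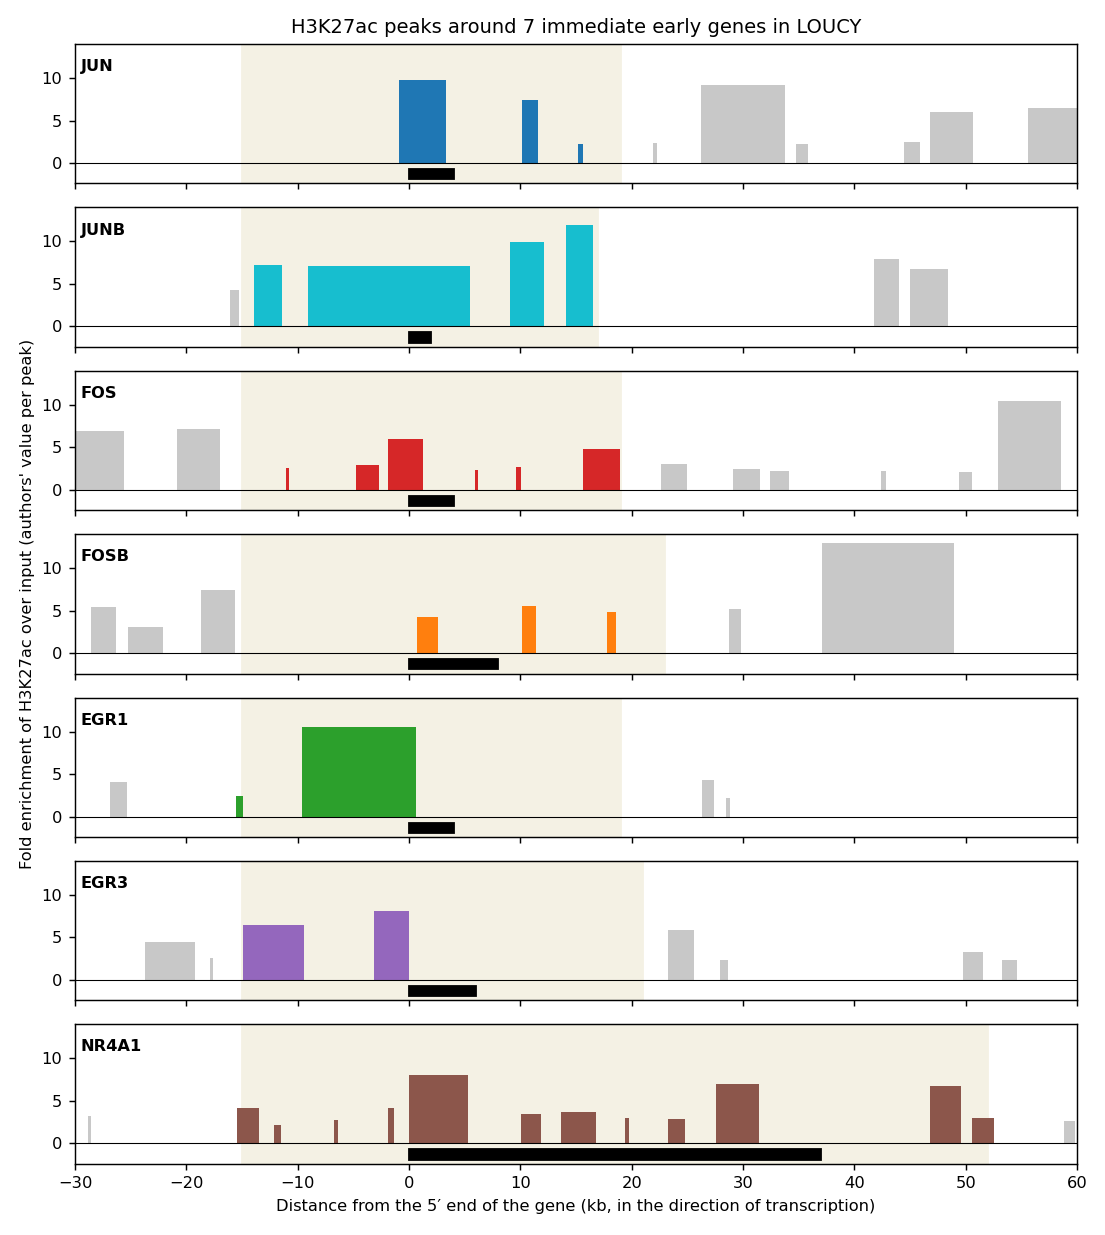
H3K27ac peaks around each gene, drawn as bars from one edge of the peak to the other (kb from the 5′ end, in the direction of transcription) with the authors' fold over input as height; black boxes are gene bodies, shaded areas the gene plus 15 kb either side, and grey bars peaks outside them. The mark covers the whole of JUNB, most of JUN, and lies before rather than within EGR1 and EGR3.

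The DNA just before the start of these genes holds short elements through which signals reach them. It is shown for the 5 genes with a match to a searched motif. Whether the peak at a start covers these elements was not determined. The promoter table of RefSeq (GRCh38.p14) matched 6 of the 7 genes, with a pair of starts for NR4A1, and did not list EGR3. Each line gives the 150 bases before the start, in the gene's own direction, with matches in capitals, except for the ETS core TTCC described below for EGR1, which is left in lower case. They lie at chr1:58784048-58784197, minus strand (JUN), chr19:12791336-12791485, plus strand (JUNB), chr14:75278678-75278827, plus strand (FOS), chr19:45467846-45467995, plus strand (FOSB) and chr5:138465329-138465478, plus strand (EGR1), all in GRCh38.p14. These positions are in another build than the peaks and were not converted.

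JUN: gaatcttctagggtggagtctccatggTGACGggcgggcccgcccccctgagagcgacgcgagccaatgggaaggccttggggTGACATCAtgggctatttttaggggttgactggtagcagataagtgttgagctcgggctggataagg
JUNB: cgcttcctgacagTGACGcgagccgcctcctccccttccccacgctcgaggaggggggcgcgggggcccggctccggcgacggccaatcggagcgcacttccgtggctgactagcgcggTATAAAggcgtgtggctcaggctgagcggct
FOS: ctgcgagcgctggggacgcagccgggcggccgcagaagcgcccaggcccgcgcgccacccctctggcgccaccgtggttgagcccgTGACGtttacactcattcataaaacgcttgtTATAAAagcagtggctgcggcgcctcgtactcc
FOSB: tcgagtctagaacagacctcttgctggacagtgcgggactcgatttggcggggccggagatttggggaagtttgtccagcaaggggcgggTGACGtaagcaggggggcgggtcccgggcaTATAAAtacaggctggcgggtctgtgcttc
EGR1: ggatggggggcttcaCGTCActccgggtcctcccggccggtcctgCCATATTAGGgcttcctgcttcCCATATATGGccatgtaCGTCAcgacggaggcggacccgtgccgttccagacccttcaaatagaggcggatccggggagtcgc

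Motifs were searched on both strands over 250 bases before and 50 after each start. The letters TGACG, the first part of the cyclic AMP response element bound by CREB and ATF proteins, were present in 5 of the 7 promoters, against 24.6% of all 35116 promoters of the table. They start 64 bases before the start at FOS and 60 bases before it at FOSB. EGR1 has the reverse complement, CGTCA, at 135 to 131 and again at 66 to 62 bases before the start. JUN has TGACG at 123 to 119 bases before the start and JUNB at 137 to 133. The full palindrome TGACGTCA, which contains TGACG, was in none of the 7 and in 1.85% of all promoters. JUN also has TGACATCA at 67 to 60 bases before the start, the position of the AP-1-like element through which JUN is known to act on its own gene. These letters were searched after the sequence had been seen and occur in 2.61% of all promoters. The strict AP-1 site TGANTCA was in none of the 7 and in 7.71% of all promoters.

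The CArG box, bound by serum response factor (SRF), was found at EGR1 alone, in 2 copies at 105 to 96 and 83 to 74 bases before the start. It occurs in 1.29% of all promoters. At EGR1 the letters TTCC, the core bound by the ETS partners of SRF, stand at 93 to 90 and at 86 to 83 bases before the start, the latter overlapping the second CArG box by 1 base. An ETS core (TTCC or CCGGAA) within 20 bases of a CArG box occurs in 0.561% of all promoters. EGR1 also has GCGCGGGCG, a match to the EGR site GCGNGGGCG, at 198 to 190 bases before the start, in a stretch not printed. That motif is found in 9.43% of all promoters. TATAAA stands at 33 to 28 bases before the start of FOS, 30 to 25 before that of FOSB and 31 to 26 before that of JUNB, where a TATA box is normally placed. It occurs in 11.5% of all promoters. Neither promoter of NR4A1 held any of these motifs. The absence of a match says only that these letters are not in this window, and a match is a description and not a measured binding site.

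JUN, which can pair with itself or with FOS proteins to form AP-1, is a single-exon gene on the minus strand of chromosome 1, at 59246000 to 59250000. A peak of 4232 bp (59246672 to 59250903) covered 83.2% of the gene and reached 903 bp beyond its 5′ end. Its fold of 9.74 ranked 3071 of all peaks, so 5.88% of the list was as strong or stronger. The only part of the gene body outside the peak was the 3′ end. Beyond that end stood a narrow but strong peak of 1456 bp (59238426 to 59239881, fold 7.47), 6.12 kb from the gene, and a weak one of 441 bp (59234404 to 59234844, fold 2.24). On the other side the 15 kb before the gene held no further peak. Downstream of the window, and separate from the peaks in it, stood a peak of 7592 bp with a fold of 9.23 at 59216210 to 59223801. It starts 26.2 kb from the 5′ end, and which gene it serves was not determined. This peak was nearly as strong as that on the gene and wider.

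JUNB, whose protein pairs with FOS proteins and is often described as opposing JUN in cell growth, had the highest cover within 15 kb, 70.5%. With a flank of 50 kb its cover was 28.4%, below the 45.0% of FOS. A single peak of 14572 bp (chromosome 19, 12892896 to 12907467, fold 7.13) held the whole gene, at 12902000 to 12904000. It ran from 9.10 kb before the 5′ end to 5.47 kb after it, and ranked 1024 by width, within the widest 1.96% of peaks. Peaks covered 77.2% of the 15 kb before the gene and 59.9% of the 15 kb after it. The gene lay in the broadest of the 4 peaks of its window, which also had the lowest fold of them. By -log10 p the broadest peak was not the lowest (35.0 against 31.0 for the peak at 12888070). The others were at 12888070 to 12890541 (fold 7.28), 12911075 to 12914122 (fold 9.94) and 12916051 to 12918524 (fold 11.9). The last, 14.1 kb after the 5′ end of JUNB and 2474 bp wide, had the highest fold of the 32 peaks and ranked 1017 by fold, though 3172 by -log10 p and 6119 by implied ChIP signal. In the RefSeq gene order of GRCh38.p14, JUNB lies between HOOK2 and PRDX2, and the peaks away from the gene may belong to these or other genes. Their assignment was not determined.

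FOS, the founding member of the FOS family of JUN partners, lies on chromosome 14 at 75745000 to 75749000. Its start was covered by a peak of 3072 bp (75743150 to 75746221, fold 5.99), which ended 1.22 kb into the gene and covered 30.5% of it. The rest of the gene body was free of peaks. A second, weaker peak (75740239 to 75742320, fold 2.88) stood 2.68 kb before the 5′ end. The remaining 4 peaks of the window had folds of 2.58, 2.29, 2.73 and 4.80. A pair of these, at 75733936 to 75734139 and 75750958 to 75751161, were 204 bp wide, the least width in the whole list and equal to the fragment length set by the caller. The peak with a fold of 4.80 (75760619 to 75763936, 3318 bp) was the only one of the 4 above a fold of 4. Stronger marks lay further out, at 75694329 to 75719362 (25034 bp, fold 6.95), at 75724146 to 75728000 (fold 7.12) and at 75797901 to 75803564 (fold 10.5). FOS is followed in the RefSeq order by JDP2 and BATF, which encode other AP-1 family proteins, and preceded by TMED10. Which gene these outer peaks serve was not determined.

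FOSB, a close relative of FOS, had the lowest fold at the start and the lowest cover within 15 kb. It lies on chromosome 19 at 45971000 to 45979000. The nearest peak (45971720 to 45973575, 1856 bp, fold 4.25) began 720 bp after the 5′ end as given, a distance that the rounding of that end can shift by 0.5 kb, and covered 23.2% of the gene. No peak lay in the 15 kb before the gene. The other peaks of the window were both beyond the 3′ end, at 45981155 to 45982430 (1276 bp, fold 5.53) and at 45988804 to 45989610 (807 bp, fold 4.79). FOSB lies between ERCC1 and RTN2 in the RefSeq order, and these outer peaks were not assigned to a gene. Peaks covered 10.4% of the window, the lowest share of the 7. With a flank of 50 kb the share rose to 28.1%, above those of JUN, EGR1, EGR3 and NR4A1. The place of the peak at 45981155 depended on the measure: it ranked 13580 by fold and 8538 by -log10 p, which was 34.9. The input level implied by its fold and p was 13.7, the highest of the 32 peaks, against a median of 6.34 over all peaks. Ranked by the ChIP signal that these values imply (80.5), it stood at 4306 and was the highest of the 32 peaks. A high local input lowers a fold, and its part in this value was not tested.

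EGR1, a zinc finger factor induced in nearly every cell type by mitogens, lies on chromosome 5 at 137801000 to 137805000. Its mark was 1 wide peak of 10309 bp (137791346 to 137801654) before the gene, with a fold of 10.5 that ranked 2120, and a width that ranked 2136. These are within the first 4.06% and 4.09% of the list. The peak reached from 9.65 kb before the 5′ end to 654 bp past it. It therefore covered 65.0% of the 15 kb before the gene, 16.4% of the gene and nothing of the 15 kb after it. The only other peak of the window (137785424 to 137786100, fold 2.44) was weak and overlapped the window by 101 bp. The 5′ end as given lay 654 bp inside the edge of the peak, more than the 0.5 kb by which rounding can move it. The pair of CArG boxes printed above stands just before the RefSeq start in GRCh38.p14. That start was not converted to hg19, so the place of the boxes relative to the peak was not determined.

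EGR3, which acts with EGR2 in thymocyte maturation and in T-cell anergy, lies on chromosome 8 at 22545000 to 22551000. Its minus strand orientation was taken from general knowledge, since the promoter table does not list it. The peak at the start (22550984 to 22554110, 3127 bp, fold 8.06) ran from 3.11 kb before the 5′ end up to that end, and the overlap of 17 bp with the gene is below the rounding of its position. A wider and weaker peak (22560402 to 22565946, 5545 bp, fold 6.44) lay 9.40 kb to 14.9 kb before the gene. Together these covered 57.7% of the 15 kb before EGR3, and no peak lay in the 15 kb after it. Within 15 kb, both EGR genes thus had peaks before the gene and none after it. The 4 AP-1 genes and NR4A1 each had at least 1 peak in the 15 kb after the gene. This contrast depends on the limit of 15 kb. After EGR3, a peak with a fold of 5.92 (22525444 to 22527710) lay 2290 bp beyond the window. After EGR1, a peak with a fold of 4.29 (137827345 to 137828409) lay 7345 bp beyond it.

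**Figure D2:**
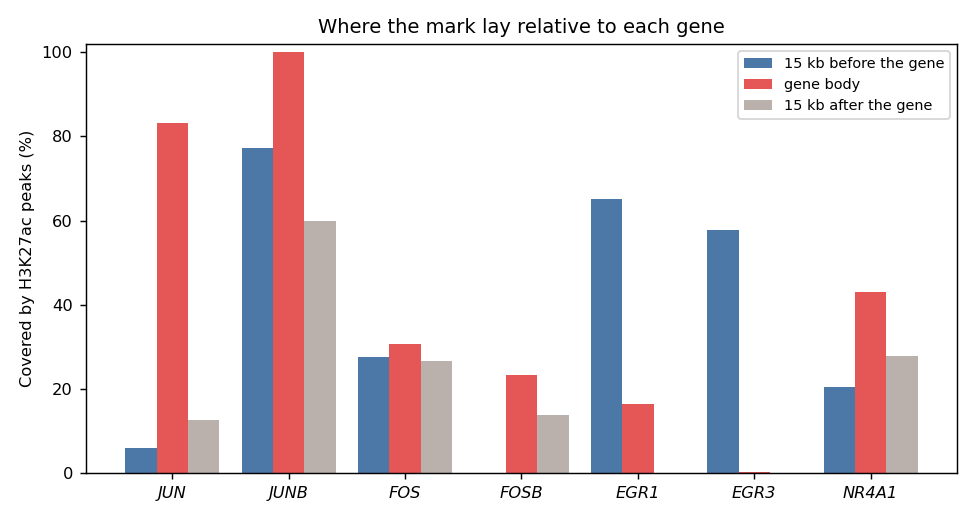
Share of sequence under H3K27ac peaks (%) in the 15 kb before each gene, in the gene body and in the 15 kb after it; bars start at 0 and there is 1 library, so no error is shown. JUNB is covered on all sides, EGR1 and EGR3 are covered before the gene (65.0% and 57.7%) and at 0 after it, and FOSB is at 0 before the gene.

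NR4A1 is the longest of the 7 genes as given, 37 kb on chromosome 12 from 52416000 to 52453000, and its window held 12 peaks. The strongest (52416025 to 52421322, 5298 bp, fold 8.06) began at the 5′ end as given and ran 5.32 kb into the gene. The second (52443583 to 52447392, 3810 bp, fold 6.99) lay inside the gene, 27.6 to 31.4 kb after that end. The table of promoters lists 2 starts for NR4A1, and more transcripts are known, so a peak inside the gene need not be distant from a start. The 150 bases before the 2 listed starts end at 52022831 and 52037714 in GRCh38.p14. These were not converted to hg19, and which inner peak lies at a start was not determined. Between the strongest and the second peak stood 4 weaker peaks with folds from 2.89 to 3.64. Together the 6 peaks in the gene body covered 43.0% of it. Before the gene were 4 peaks with folds of 4.20, 2.18, 2.77 and 4.15, the nearest 1.31 kb from the 5′ end. After it came a peak with a fold of 6.79 (52462823 to 52465569) and a weaker one with a fold of 3.04 (52466570 to 52468543). NR4A1 is followed in the RefSeq order by ATG101 and preceded by TAMALIN, and these outer peaks were not assigned to a gene. NR4A1 alone of the 7 genes had several peaks in the gene body. That body is 37 kb long, against 2 to 8 kb for the others, and the part of length in the count was not tested.

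Across the 32 peaks the median fold was 4.52, against 3.08 over all peaks, and the median width 1982 bp, against 1670 bp. A fold of at least 4 was reached by 19 of the 32 (59.4%), where 37.4% of all peaks did. All peaks are a background that is not limited to the surroundings of genes, so these values say nothing particular about immediate early genes. The genes also weigh unequally, with 12 of the 32 peaks from the 67 kb window of NR4A1 and 2 each from EGR1 and EGR3. Peaks that touched a gene body (12) had a median fold of 6.49 and the 20 others one of 4.18, with the EGR3 peak counted as touching by its 17 bp. Several of the 12 lay in the 37 kb body of NR4A1. A wide peak touches a body more readily than a narrow one, and the part of width in this contrast was not tested. Folds ran from 2.18 to 11.9. In 5 of 7 genes the strongest peak of the window touched the gene body. The exceptions were JUNB, with its strongest peak near the window's edge, and FOSB. The implied input level of the 32 peaks had a median of 6.33, against 6.34 for all peaks, and ran from 4.12 to 13.7.

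**Figure D3:**
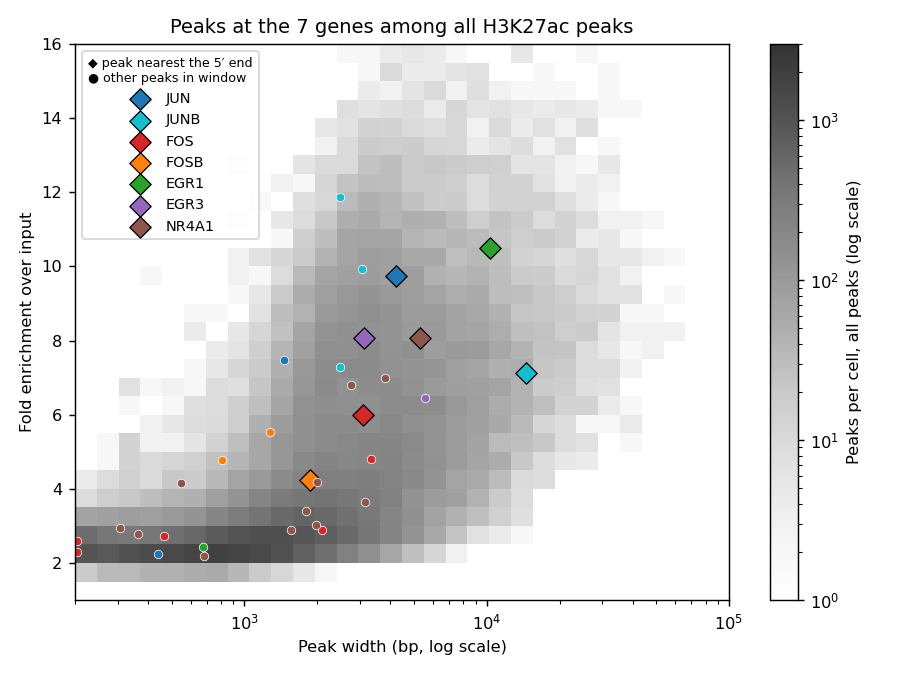
Fold over input against peak width (bp, log scale) for the 32 peaks at the 7 genes, with the peak nearest each 5′ end as a diamond; grey cells count all 52203 peaks on a log scale, and peaks with a fold above 16 are outside the axis. The start-site peaks of EGR1 and JUN lie high, that of JUNB far to the right, and that of FOSB close to the bulk of moderate peaks.

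For comparison, the chromosomes were cut into 89203 windows of 34 kb, the median length of the 7 gene windows. A peak was present in all 7 gene windows and in 32.8% of these, and the highest fold was at least 4 in all 7 and in 19.9%. Many of the 34 kb windows hold no gene, so this says nothing particular about immediate early genes. Among windows with a peak, the median share covered was 8.95% and the median highest fold 5.07. The gene windows were covered by 70.5% (JUNB), 34.6% (NR4A1, over 67 kb), 30.6% (EGR1), 27.5% (FOS), 24.1% (EGR3), 18.0% (JUN) and 10.4% (FOSB). All 7 were above that median. At or above the cover of JUNB were 1.79% of windows with a peak, at or above that of FOSB 44.7%. The highest folds of FOS (5.99) and FOSB (5.53) were near the median of windows with a peak, with 41.7% and 45.6% of them at or above.

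The limit of 15 kb left out some peaks by little. The nearest outside were 305 bp beyond the window of JUNB (fold 4.27) and 659 bp beyond that of FOSB (45952267 to 45955341, 3075 bp, fold 7.49). The latter had a higher fold than every peak inside the FOSB window. By -log10 p the peak at 45981155 inside the window was higher (34.9 against 30.2), as it was by implied ChIP signal (80.5 against 51.0). Just inside were the 101 bp of the EGR1 peak with a fold of 2.44 and the outermost peaks of NR4A1, with folds of 4.20 and 3.04.

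Peaks within 12.5 kb of each other were then joined into 25510 regions, which were put in order of their summed product of fold and width. The regions that hold FOS (rank 371), JUN (703), JUNB (945) and FOSB (1003) were among the 1421 large domains set apart by the slope of the rank curve. Those with EGR1 (rank 1756), NR4A1 (1976) and EGR3 (2644) were not. Large domains were 5.57% of all regions, and 4 of 7 genes lay in one. The first share counts regions of any size equally, so it is a background of regions and not the share of other genes. The order differs from that at the start sites: FOS, sixth by start-site fold, lay in the largest region, 119 kb with 16 peaks. EGR1, first by start-site fold, lay in a region of 27.6 kb with 3 peaks. Peaks outside the gene windows made up 89.4% of the summed value of the FOSB region, 87.2% of that of FOS and 76.7% of that of JUN, but 1.72% of that of JUNB. The FOSB region (45971720 to 46019936, 48.2 kb) takes in a peak with a fold of 13.0 at 46008100 to 46019936, outside its window. Which gene that peak serves was not determined. The JUN region was 68.1 kb long with 9 peaks, and lay almost wholly beyond the 3′ end of the gene.

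**Figure D4:**
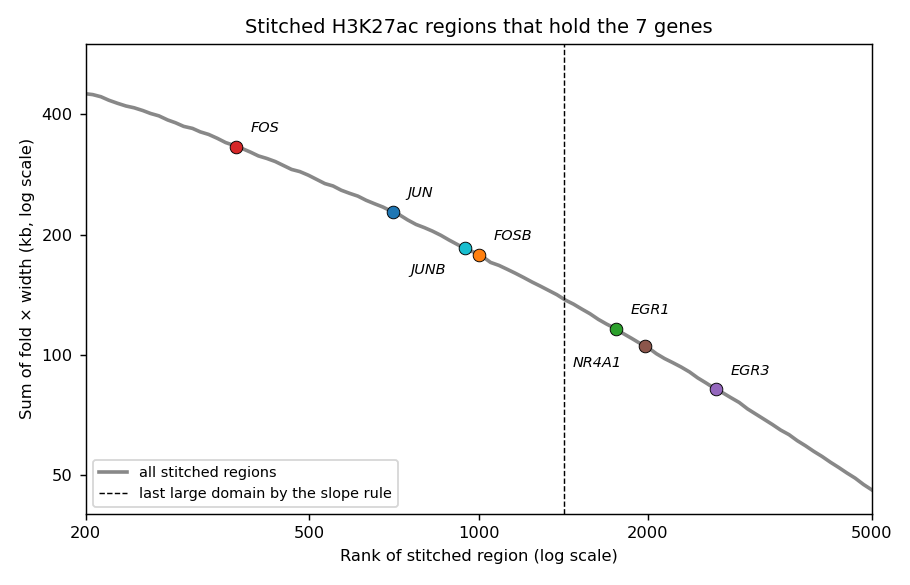
Stitched H3K27ac regions that hold the 7 genes on the rank curve of all regions (sum of fold times width in kb against rank, both log scales, cut to the ranks around the genes); the dashed line marks the last of the 1421 large domains. The 4 AP-1 genes lie left of the line and EGR1, NR4A1 and EGR3 right of it.

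This split depended on the joining distance. With peaks joined within 5000 bp, or with only peaks of a -log10 q of at least 10, JUNB alone stayed in a large domain. Ranked by summed width, JUN, JUNB, FOS and NR4A1 were in one.

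Of 34 further immediate early genes and regulators of the same pathways, 25 were in the promoter table, with 32 promoters. FOSL1, NR4A2, BATF3, IER3, DUSP5, MYC, KLF10, CCN1 and CD69 were not matched. These genes have no hg19 position in the sources used here and so no peak values, and only their promoter letters could be counted. TGACG was in 16 of the 25 genes (56.3% of promoters against 24.6% of all), among them JUND, FOSL2, EGR2, EGR4, NR4A3 and IER2. The palindrome TGACGTCA was in 4 genes (12.5% of promoters against 1.85%): DUSP1, a MAP kinase phosphatase, JUND, MAF and MAFF. A CArG box was in 2 (6.25% of promoters against 1.29%), EGR2 and SRF itself. The EGR site GCGNGGGCG was in 9 genes (31.3% of promoters against 9.43%), among them NAB1 and NAB2, the corepressors of EGR proteins. The strict AP-1 site was in FOSL2 only (3.1% of promoters against 7.71%). These are counts of letters in a list chosen for its pathway, and no enrichment was tested.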

How the data were processed

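H3K27ac ChIP was sequenced against input DNA in LOUCY. Bowtie2, MACS2 and hg19 are named in the submitters' processing notes. Per the file headers, the authors called broad peaks with MACS2 2.1.0.20140616 on the 1 library pair, kept 1 tag per position (54357332 ChIP and 71932640 input tags) and set a q cutoff of 0.05. Not every listed peak meets 0.05 by its own deposited q. The NR4A1 peak at 52403836, 1 of the 32, has a -log10 q of 1.08. The deposited fold is a ratio of ChIP signal to local input, and the deposited -log10 p-value, like the deposited -log10 q-value, is 1 value of the caller per peak. They served only to describe and rank peaks. Dropping repeated positions caps the strongest peaks. The deposited pileup was below 0 and not used.

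Genes and windows followed the rule above, with gene ends rounded to 1 kb. The members and lists were chosen with earlier results of these data known. Named were the 7 genes, every peak in their windows and, chosen after their values were seen, the peaks outside them. The implied input level is the control level at which a fold, with 1 added to both signals, has its Poisson p; it is approximate for broad peaks. Overlap was 1 bp or more. Calculations, tested on simulated data, used Python 3.11.15, numpy 2.4.6, pandas 2.3.3 and scipy 1.17.1, and figures matplotlib 3.10.9. Promoter sequences came from RefSeq (GRCh38.p14), matched by symbol. Alternatives covered thresholds, flanks, overlap, ranking and joining.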

Additional observations from a re-analysis of the deposited data

How the results depend on the processing

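The 7 of 7 genes with a peak within 1 kb of the 5′ end stayed 7 with 2 kb and with a -log10 q of at least 10, and were 5 when the rounded end itself had to be covered, without FOSB and NR4A1. The 32 peaks became 17 at a -log10 q of at least 10, 19 at a fold of at least 4, 16 with a flank of 5 kb and 71 with a flank of 50 kb, which follows from fewer peaks or other window lengths. They were 31 when at least 50% of a peak had to lie in the window. The median cover of 27.5% ranged from 18.8% to 35.0%, but the order of the genes changed. With a flank of 50 kb, JUNB went from 70.5% to 28.4%, EGR1 from 30.6% to 13.5%, FOS from 27.5% to 45.0% and FOSB from 10.4% to 28.1%. The median highest fold of 8.06 ranged from 8.06 to 10.5. For single genes, a flank of 50 kb raised the highest fold at FOS to 10.5 and at FOSB to 13.0, and a flank of 5 kb lowered that at JUNB to 7.13. The median rank of the strongest peak, 6303 by fold, was 14107 by width, 7781 by -log10 p and 6119 by implied pileup. The median rank of the joined region was 1003 of 25510 (3.93%), 5855 of 35140 (16.7%) with joining within 5000 bp and 2495 of 15235 (16.4%) under the stricter q. Because the lists differ in length, the shares are the values to compare. Genes in a large domain fell from 4 to 1 under both, and the cause was not tested. Of 121 values for single genes or motifs, 70 stayed within 1.5 times the main value. The count of motifs in bases before the start only was chosen after seeing the data and changed no count for the 7 promoters. No paired analysis was possible because each group was a single library.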
